A study of Mus musculus with 4 samples.

Results

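Histocompatibility and antigen presentation genes were followed in the whole brain of aged mice. The set was a list of 33 mouse genes, taken by name: class I and class II histocompatibility genes, the light chain of class I, and the genes that cut, carry and load peptides for both classes. A probe belonged to the set when its accession on the array was that of a listed gene. On this rule 27 of the 33 genes had at least 1 probe, and they held 45 of the 41174 probes on the array, which name 16543 genes in all. No probe was matched for H2-K1, H2-D1, H2-T10, H2-Q4, H2-M2 and H2-Eb1, which are therefore not analysed here.

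Class I molecules stand on the surface of most nucleated cells. They consist of a heavy chain and the light chain beta-2-microglobulin, and they show peptides cut by the proteasome in the cytosol, carried into the endoplasmic reticulum by the TAP transporter, to CD8 T cells and natural killer cells. Class II molecules are made mainly by professional antigen-presenting cells. They take up peptides in the endosome, after the invariant chain has been removed, and show them to CD4 T cells. In the healthy brain class I is low in most neurons and higher in microglia and blood vessels, and class II is found mainly in macrophages of the meninges and perivascular spaces and in a few microglia.

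RNA came from SAMP8 mice fed the WME diet, SAMP8 mice fed the LSO diet and SAMR1 mice fed the LSO diet. SAMP8 is a senescence-accelerated, prone strain and SAMR1 its senescence-resistant counterpart, and the labels give both an AKR/J background with a suspected cross to an unknown line, so the strains differ at more than 1 locus. LSO was the control diet, with little safflower oil, and WME was the diet supplemented with an extract of minke whale meat. Mice arrived at 6 weeks of age, ate chow until 24 weeks, and then received the powdered diets for 26 weeks. All of them went through 8 days of behavioural tests at 49 weeks, and whole brains were taken at 50 weeks. The number of mice that contributed to each RNA was not stated in the labels used.

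Each comparison rested on 1 RNA per group, hybridised to 2 arrays with the dyes exchanged. The diet pair, SAMP8 WME over SAMP8 LSO, was arrays 1 and 2. The strain pair, SAMP8 LSO over SAMR1 LSO, was arrays 3 and 4. The SAMP8 LSO RNA was taken to be the same RNA in both pairs, which is an assumption. The arrays of a pair count as 1 replicate. An SD over 2 arrays is therefore a technical error that leaves out the spread between mice, and no test was possible. A gene or probe was called higher or lower when its ratio was at least 1.5-fold, 0.58 on the log2 scale, in the same direction on both arrays. A gene is given by its brightest probe unless a probe is named. Over all 26390 genes and unnamed transcripts measured in both pairs, the dye orientations gave a technical SD of 0.049 for a mean log2 ratio, and 0.040 for the brighter ones.

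All 4 arrays lay on 1 slide. Each held 43379 probe spots, of which 81.4% to 85.6% were well above background in a channel, none was saturated, and 105 to 123 were outliers and left out. All 45 probes of the set were measured in the strain pair and 44 in the diet pair. The exception was the only probe of H2-Ob. It was well above background on 1 array for each RNA of the diet pair, and in the strain pair on 1 array for SAMP8 and 2 for SAMR1. The brain markers Snap25, Syt1, Gfap, Aqp4, Mbp, Mog, Slc17a7 and Gad1 were all measured.

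Many class I genes are near copies of each other. RefSeq promoters on the build GRCm38.p6 were available for 25 of the 33 genes, and 10 of these are class I heavy chain genes. Over the 45 pairs among the 10, identity of the 250 bases before the start ranged from 45.2% to 80.4%, with a median of 51.6%. The nearest pair was H2-D1 and H2-Q10 at 80.4%, followed by H2-D1 and H2-Q4 at 75.9% and H2-Q4 and H2-Q10 at 72.1%. These identities are of promoters, and neither transcripts nor probe sequences were compared. How far a probe of 1 class I gene also binds the RNA of a near copy, including those with no probe of their own here, was not tested. Reading a probe's ratio as that of 1 gene alone is therefore uncertain for all class I heavy chains. Whether sequence differences between the strains alter the binding of any probe of the set was not tested either.

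The promoters below are shown because their genes carry the contrasts of the strain pair. H2-T23 (chr17:36032702-36032951, minus strand) and H2-Q7 (chr17:35438905-35439154, plus strand) are class I genes that were higher in SAMP8. B2m (chr2:122147437-122147686, plus strand) encodes the light chain, Psmb9 (chr17:34187331-34187580, minus strand) an immunoproteasome subunit, and H2-Aa (chr17:34287824-34288073, minus strand) a class II chain whose probes went opposite ways. Capitals mark 4 motifs searched on both strands: the class I enhancer kappa B core GGGATTCCC, the interferon regulatory factor (IRF) core AANNGAAA, the X2 box core TGACG and the CCAAT box CCAAT. Each line runs 5′ to 3′ and ends just before the gene's start.
H2-T23: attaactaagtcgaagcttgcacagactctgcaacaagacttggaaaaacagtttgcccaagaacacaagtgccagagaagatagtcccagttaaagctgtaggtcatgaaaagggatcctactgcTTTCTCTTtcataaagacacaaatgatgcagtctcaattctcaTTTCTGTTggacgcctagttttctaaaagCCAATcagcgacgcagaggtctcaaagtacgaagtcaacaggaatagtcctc
H2-Q7: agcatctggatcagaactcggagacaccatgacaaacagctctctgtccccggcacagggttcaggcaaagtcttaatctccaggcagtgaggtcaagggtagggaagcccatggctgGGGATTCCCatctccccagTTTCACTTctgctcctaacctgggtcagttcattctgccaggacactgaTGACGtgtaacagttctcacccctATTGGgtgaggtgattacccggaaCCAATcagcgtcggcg
B2m: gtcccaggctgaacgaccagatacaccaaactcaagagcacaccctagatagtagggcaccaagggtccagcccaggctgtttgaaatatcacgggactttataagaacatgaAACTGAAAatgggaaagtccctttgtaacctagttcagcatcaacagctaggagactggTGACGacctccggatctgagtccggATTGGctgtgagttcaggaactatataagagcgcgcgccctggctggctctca
Psmb9: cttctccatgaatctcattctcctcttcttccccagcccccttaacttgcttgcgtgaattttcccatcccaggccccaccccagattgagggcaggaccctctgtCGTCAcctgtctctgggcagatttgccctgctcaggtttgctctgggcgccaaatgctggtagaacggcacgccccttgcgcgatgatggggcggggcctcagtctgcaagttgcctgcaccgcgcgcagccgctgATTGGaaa
H2-Aa: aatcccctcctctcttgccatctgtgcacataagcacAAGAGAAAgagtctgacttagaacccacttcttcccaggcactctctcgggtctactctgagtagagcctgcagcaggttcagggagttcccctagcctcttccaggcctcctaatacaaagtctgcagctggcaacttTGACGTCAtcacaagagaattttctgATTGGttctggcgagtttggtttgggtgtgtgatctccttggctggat

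In the H2-Q7 window the kappa B core began 132 bases before the start, the IRF core 113, the X2 core 64, and CCAAT boxes 40 and 16. The B2m window held an IRF core at 137, an X2 core at 78 and a CCAAT box at 53 bases before the start. H2-T23 had IRF cores at 124 and 81 and a CCAAT box at 52, with no kappa B core or X2 core in the window. The H2-Aa window held X2 cores at 74 and 71, which overlap because the stretch reads the same on both strands. Psmb9 had an X2 core at 144 and a CCAAT box at 8.

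The IRF core was present in 12 of the 25 promoters and in 10 of the 10 class I ones, against 21.3% of 32536 mouse promoters of the same length. The X2 core was in 12 of 25, against 17.9% of all, and the CCAAT box in 18 of 25, against 33.8%. The kappa B core was in 3, those of H2-D1, H2-K1 and H2-Q7, against 0.301% of all. That core is by name a class I element, and class I promoters shared up to 80.4% identity. These shares are therefore not an independent comparison with all promoters. Among genes with both a promoter and a measured probe, the IRF core was in 4 of the 5 called higher in SAMP8 (H2-Q2, H2-Q7, H2-Q10 and H2-T23, not Psmb9) and in 4 of the other 15 (B2m, H2-Aa, H2-M3 and H2-T22). The called genes with the core are all class I heavy chains, and so are H2-M3 and H2-T22. This split therefore follows class and does not separate called from uncalled class I genes. These matches describe letters in a window and do not show that a factor binds there.

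Class I heavy chain genes differed most between the strains. Of the 9 with a probe, 6 were higher in SAMP8 than in SAMR1 brain: H2-Bl, H2-Q1, H2-Q2, H2-Q7, H2-Q10 and H2-T23. The change was large for H2-Bl and lay between 1.66-fold and 1.86-fold for the other 5. In whole brain RNA, more cells of a type and more RNA per cell cannot be told apart. All 9 had ratios above 0 on both arrays, and their median log2 ratio was 0.75. Over the whole set, 7 of 27 genes were called higher, the 6 above and Psmb9, and none lower, where 0.969% of the 26934 genes and unnamed transcripts measured were called higher and 0.494% lower. The median log2 ratio was 0.24 over the set and -0.0067 over all measured. Ratios were above 0 on both arrays for 18 of the 27 genes (66.7%), against 23.9% of all measured, and below 0 on both for 4.

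Counting probes, 10 of 45 were higher in SAMP8 and 1 lower, where 0.911% of 34017 probes measured were called higher and 0.52% lower. Of the 10, 8 belonged to class I heavy chains, which held 18 probes, and 2 to peptide generation genes. The 1 lower probe belonged to H2-Aa.

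**Figure D1:**
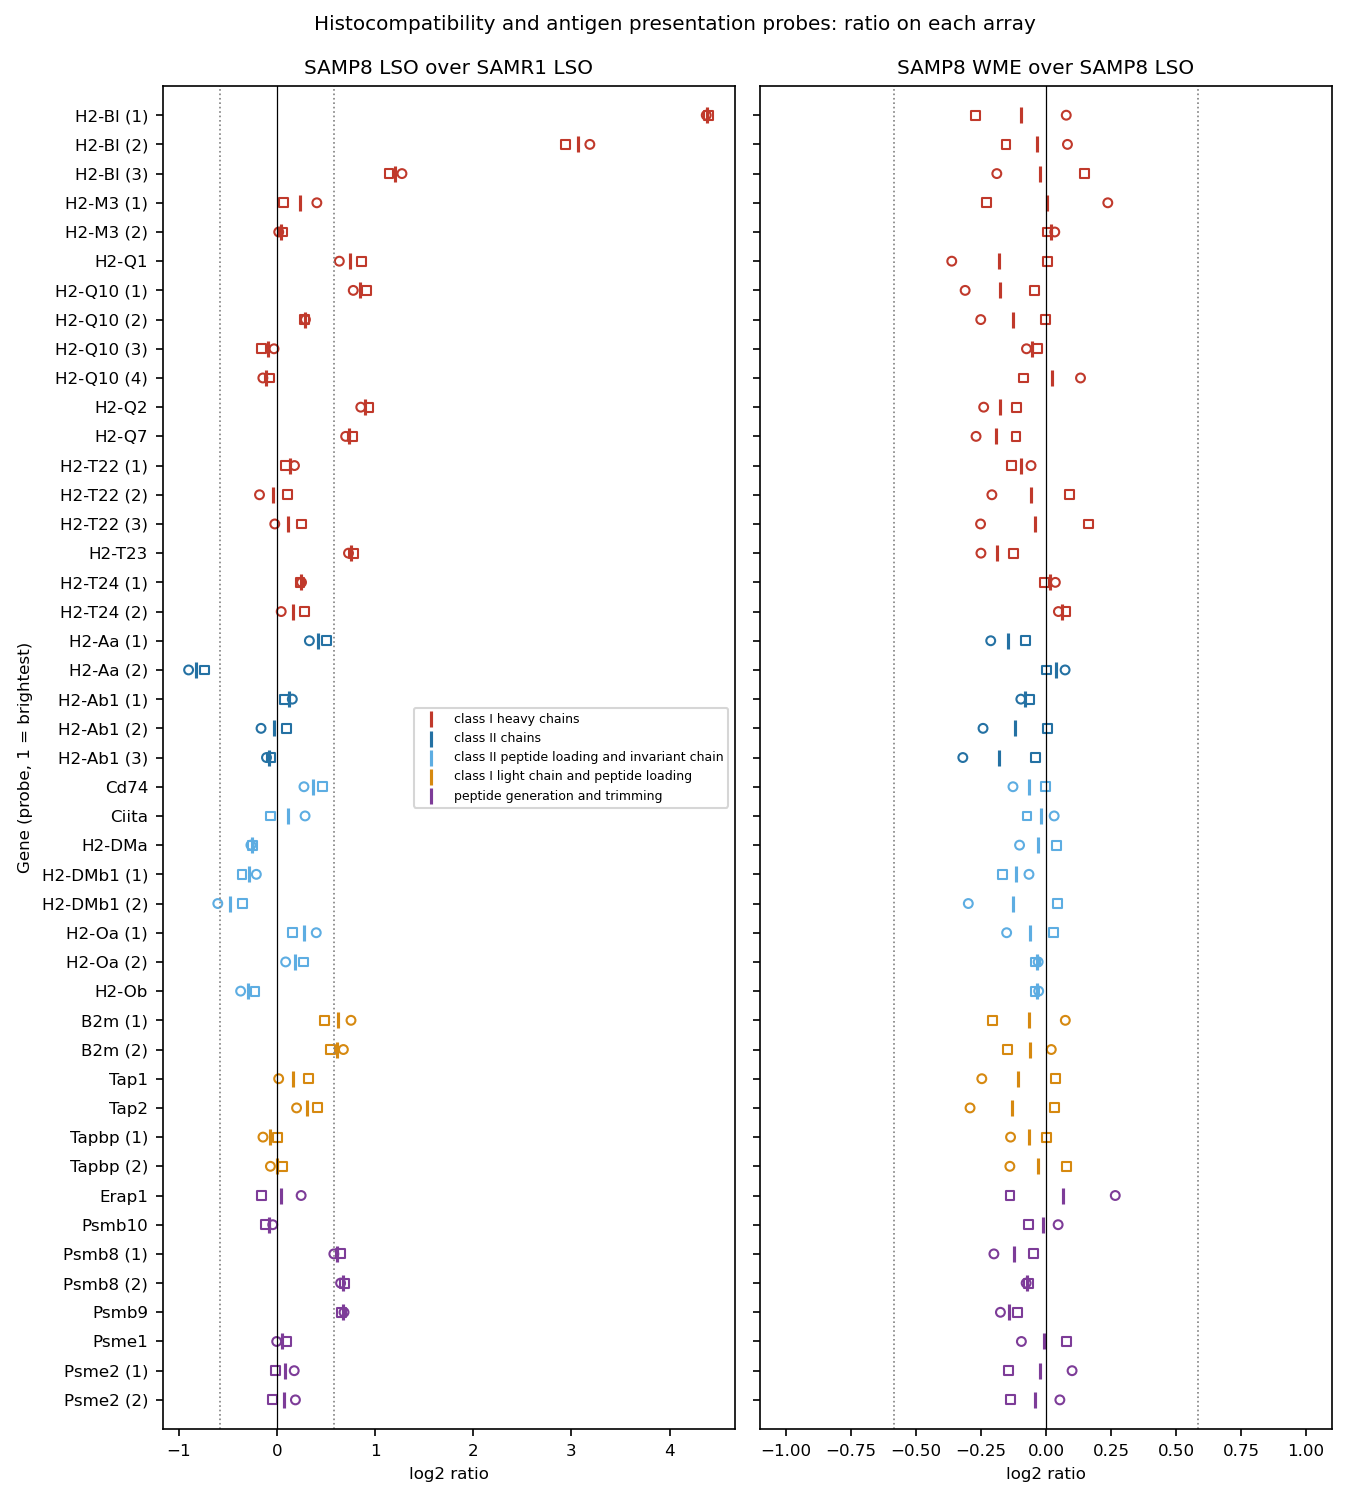
Log2 ratio on each array (x axis) for every probe of the 27 genes (rows, probe 1 being the brightest), SAMP8 LSO over SAMR1 LSO on the left and SAMP8 WME over SAMP8 LSO on the right. Circles are the array with the SAMP8 LSO (left) or SAMP8 WME (right) RNA in Cy5, squares the dye-swapped array, vertical ticks their mean, and dotted lines 1.5-fold; the axes differ in range, with H2-Bl reaching 4.39 on the left and no mean beyond -0.19 on the right.

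H2-Bl, a class I gene of the T region first named for the blastocyst, had the largest ratio of the set. Its brightest probe had a normalised log2 intensity of 11.02 and 10.82 in SAMP8 LSO brain on arrays 3 and 4, against 6.65 and 6.42 in SAMR1 LSO brain. Both RNAs were well above background on both arrays, and the groups were far apart. The log2 ratio was 4.37 and 4.40, a mean of 4.39 ± 0.02 (SD over 2 arrays), or 20.9-fold higher in SAMP8.

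The other H2-Bl probes went the same way with smaller ratios. The second had intensities of 10.15 and 9.88 in SAMP8 and 6.96 and 6.94 in SAMR1, a log2 ratio of 3.06 ± 0.18 and 8.35-fold. The third had 9.18 and 9.33 in SAMP8 and 7.91 and 8.19 in SAMR1, a log2 ratio of 1.21 ± 0.09 and 2.31-fold. The direction was shared by all 3 probes, while the size differed by 3.18 on the log2 scale between the first and the third. Whether a sequence difference between the strains changed the binding of these probes was not tested. The offset added before taking logs pulls ratios of dim spots towards 0. With Feature Extraction's own processed signals the 3 ratios were 67.1-fold, 17.2-fold and 2.84-fold, so the size for H2-Bl depends on how the dim SAMR1 signal is treated, while the direction does not among the settings run.

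The Q region gave 4 genes that were higher in SAMP8. H2-Q7, which encodes the Qa-2 antigen, was measured by 10 spots on each array and had intensities of 11.84 and 11.92 in SAMP8, against 11.14 and 11.15 in SAMR1. Its log2 ratio was 0.73 ± 0.05, or 1.66-fold. H2-Q2 had 12.79 and 12.90 in SAMP8 and 11.94 and 11.96 in SAMR1, a log2 ratio of 0.90 ± 0.06 and 1.86-fold. H2-Q1 had 9.80 and 10.01 in SAMP8 and 9.17 and 9.15 in SAMR1, a log2 ratio of 0.75 ± 0.16 and 1.68-fold. Each of these genes was above 0 on both arrays, as were 23.9% of all measured genes and unnamed transcripts. The gap was several times the SD between arrays, which is a technical spread of 1 RNA pair.

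H2-Q10 encodes a class I molecule secreted mainly by the liver, and its 4 probes did not go together. The brightest had intensities of 12.25 and 12.34 in SAMP8, against 11.47 and 11.43 in SAMR1, a log2 ratio of 0.84 ± 0.09 and 1.79-fold. The second had ratios of 0.29 and 0.28 on the arrays, below the threshold. The third had -0.03 and -0.16 and the fourth -0.14 and -0.08, on the other side of 0, and the fourth had a mean of -0.74 with processed signals. Both were dim, with intensities from 6.67 to 7.01 in the strain pair, so their sign carries little weight. The call for H2-Q10 thus rests on 1 of 4 probes and is lost when the median over its probes is taken. H2-D1, whose promoter was nearest to that of H2-Q10, has no probe of its own here. Promoter identity does not tell whether a probe binds the RNA of both genes, and this was not tested.

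H2-T23 encodes Qa-1, which shows leader peptides of other class I molecules to receptors of natural killer cells. It had intensities of 12.37 and 12.48 in SAMP8, against 11.64 and 11.71 in SAMR1. The log2 ratio was 0.73 and 0.78, a mean of 0.75 ± 0.04, or 1.69-fold higher. Klrd1, which encodes the CD94 chain of a receptor for Qa-1, was lower in SAMP8, with log2 ratios of -0.76 and -0.73. Of the 7 T and NK cell markers measured it was the 1 called, and 4 were above 0 on both arrays.

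The other class I heavy chain genes with a probe, H2-T24, H2-T22 and H2-M3, were not called. H2-T24 had log2 ratios of 0.25 and 0.24 at its brighter probe and 0.04 and 0.28 at the other. H2-T22, whose product is a ligand for some gamma delta T cell receptors, had means of 0.13, -0.04 and 0.11 at its 3 probes. H2-M3, which presents peptides that carry a formyl group, had 0.41 and 0.07 at its brighter probe, a mean of 0.24 ± 0.24, and 0.04 at the dimmer one. Each of these means was under 1.5-fold. With Feature Extraction's processed signals H2-T24 had 0.66 and 0.56 at its probes and was called higher.

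**Figure D2:**
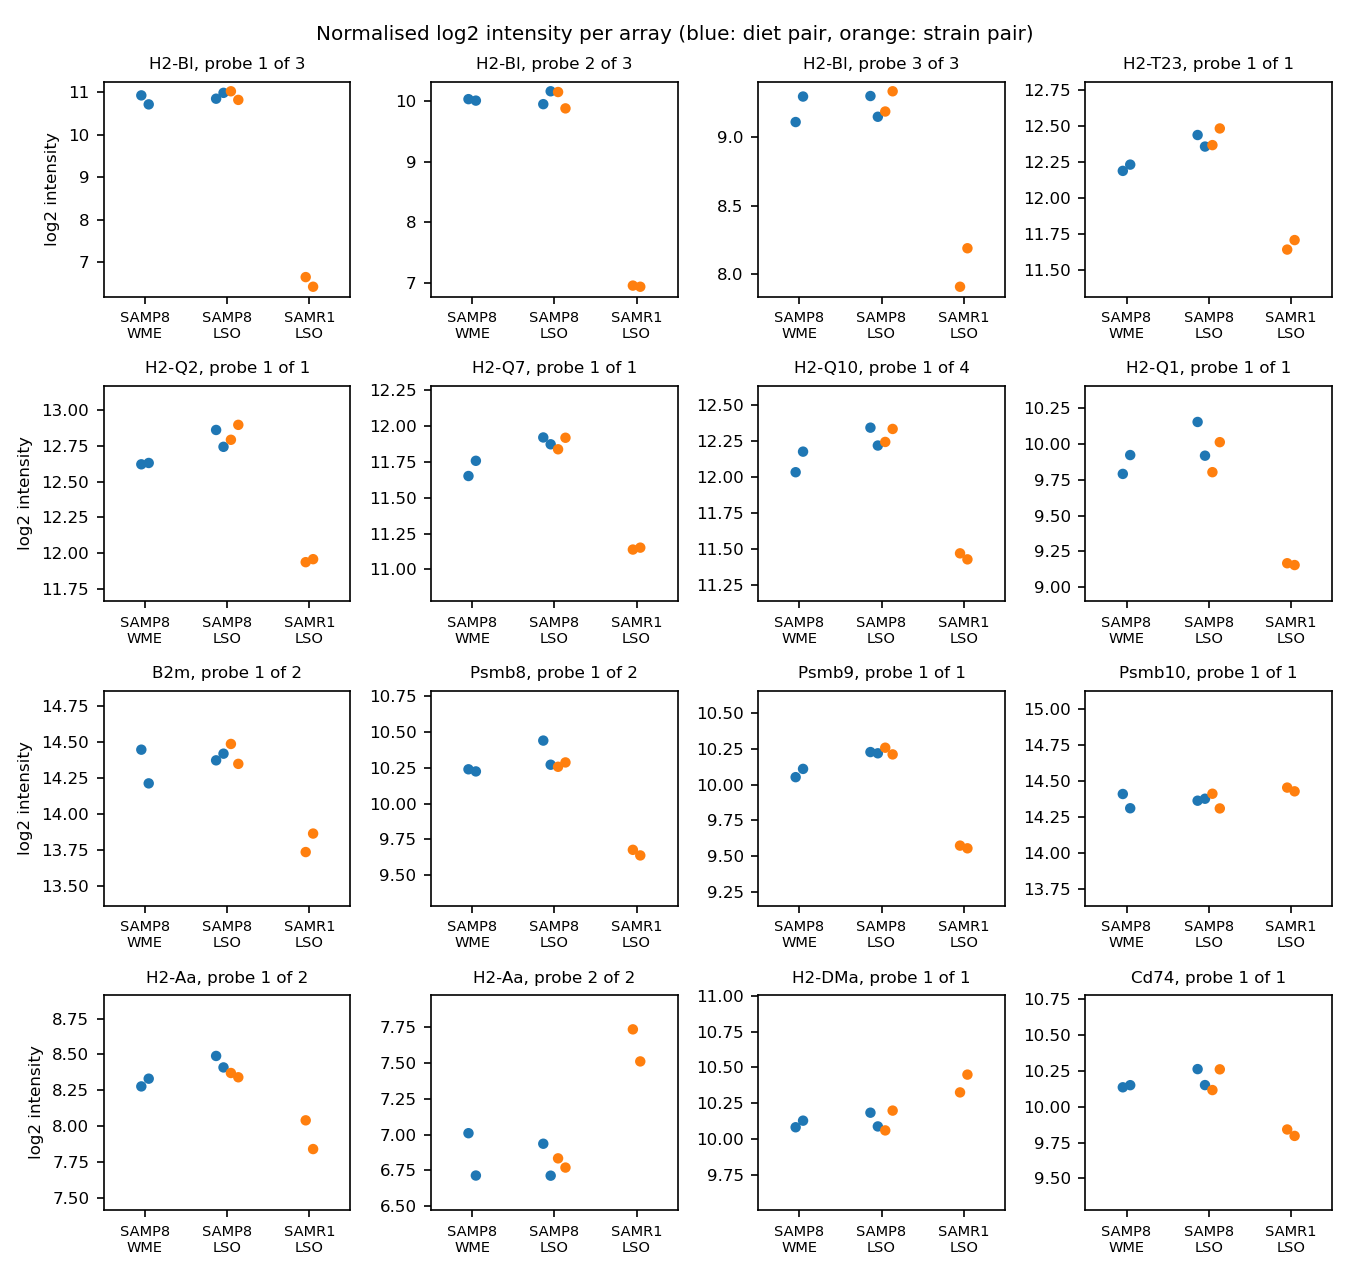
Normalised log2 intensity (y axis, a separate range in each panel) of 16 probes in SAMP8 WME, SAMP8 LSO and SAMR1 LSO brain, each point being 1 array, blue for the diet pair and orange for the strain pair. SAMR1 points lie below all SAMP8 points for H2-Bl, H2-T23, the Q genes, B2m, Psmb8 and Psmb9 and above them for the second H2-Aa probe, with Psmb10 values between 14.31 and 14.45 throughout.

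The class I light chain had ratios just around the threshold. B2m had intensities of 14.49 and 14.35 in SAMP8 LSO brain, against 13.73 and 13.86 in SAMR1 LSO brain. Its log2 ratios were 0.75 and 0.49 at the brighter probe, a mean of 0.62 ± 0.19, and 0.68 and 0.55 at the other, a mean of 0.61 ± 0.09. Both means passed 1.5-fold, but on array 4 neither probe did, so B2m was not called. At its brighter probe B2m was above 0 on both arrays, as were 23.9% of all measured genes and unnamed transcripts.

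The genes of the peptide-loading complex had smaller ratios. Tap1 and Tap2 encode the paired subunits of the peptide transporter. Tap1 had log2 ratios of 0.02 and 0.32, and Tap2 of 0.20 and 0.41, a mean of 0.31 ± 0.15. Tapbp, which encodes tapasin, the bridge between the transporter and the class I heavy chain, had means of -0.07 and -0.0042 at its 2 probes. None of the 3 was called.

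Among genes that cut peptides, Psmb9 was higher in SAMP8. Psmb8, Psmb9 and Psmb10 encode the catalytic subunits that replace the constitutive ones in the immunoproteasome. Psmb9 had intensities of 10.26 and 10.21 in SAMP8, against 9.57 and 9.56 in SAMR1, a log2 ratio of 0.67 ± 0.02 and 1.59-fold. Psmb8 had 10.26 and 10.29 in SAMP8 and 9.68 and 9.64 in SAMR1 at its brighter probe. That probe gave 0.58 and 0.65 and fell just short of the threshold on array 3, while the dimmer one gave 0.65 and 0.69, or 1.59-fold, and was called. Both Psmb8 probes therefore lay within 0.056 of each other, on either side of the rule.

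The third catalytic subunit and the activators did not share this pattern. Psmb10 had log2 ratios of -0.04 and -0.12. Psme1 and Psme2, the subunits of the PA28 activator, had means of 0.05 for Psme1 and of 0.08 and 0.07 for the 2 probes of Psme2. Erap1, which trims peptides in the endoplasmic reticulum, had 0.25 and -0.16, of opposite sign on the arrays. The 6 constitutive counterparts, Psmb5, Psmb6, Psmb7, Psme3, Psme4 and Pomp, had a median of -0.025 with none called, the largest being Psmb7 at -0.05 ± 0.06.

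Class II genes went both ways, and no gene was called by its brightest probe. Of 8 measured, 4 had ratios above 0 on both arrays and 3 below 0 on both. H2-Aa, the class II alpha chain, was split by probe. Its brighter probe had intensities of 8.37 and 8.34 in SAMP8, against 8.04 and 7.84 in SAMR1, a log2 ratio of 0.42 ± 0.12. The dimmer one had 6.83 and 6.77 in SAMP8, against 7.73 and 7.51 in SAMR1, a log2 ratio of -0.82 ± 0.11, or 1.77-fold lower. With Feature Extraction's processed signals it was 3.48-fold lower. The probes of H2-Aa thus disagreed in sign by 1.24 on the log2 scale, more than the spread between arrays, and H2-Aa as a gene is left without a direction.

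The beta chain H2-Ab1 had means of 0.12, -0.03 and -0.08 at its 3 probes, the second of them printed as 10 spots. Cd74, the invariant chain that fills the groove until the endosome is reached, had 10.12 and 10.26 in SAMP8 and 9.84 and 9.80 in SAMR1, a log2 ratio of 0.37 ± 0.13. Ciita, the co-activator that turns on class II genes, had 0.29 and -0.06. None of these was called.

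The non-classical class II genes lay on both sides of 0. H2-DMa and H2-DMb1 encode the DM pair that exchanges the invariant chain fragment for peptide. H2-DMa had 10.06 and 10.20 in SAMP8 and 10.33 and 10.45 in SAMR1, a log2 ratio of -0.26 ± 0.01. H2-DMb1 had -0.28 ± 0.10 at its brighter probe and -0.48 ± 0.18 at the other. H2-Oa and H2-Ob encode DO, the inhibitor of DM. H2-Oa had 0.28 ± 0.17 and 0.18 ± 0.13, and the dim H2-Ob -0.30 ± 0.10. All were under 1.5-fold on average. With Feature Extraction's processed signals 3 of these probes passed it on average, H2-Ob at -1.39, the second H2-DMb1 probe at -0.88 and the first H2-Oa probe at 0.67, and H2-Ob was called lower.

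Probes of the same gene can be compared for 13 genes, and 14 had a single probe. In 9 of the 13 all means had 1 sign, and in 4 they had both: H2-Aa, H2-Ab1, H2-Q10 and H2-T22. The means differed by under 0.2 in 9 genes and by over 1 in 2, H2-Bl and H2-Aa.

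**Figure D3:**
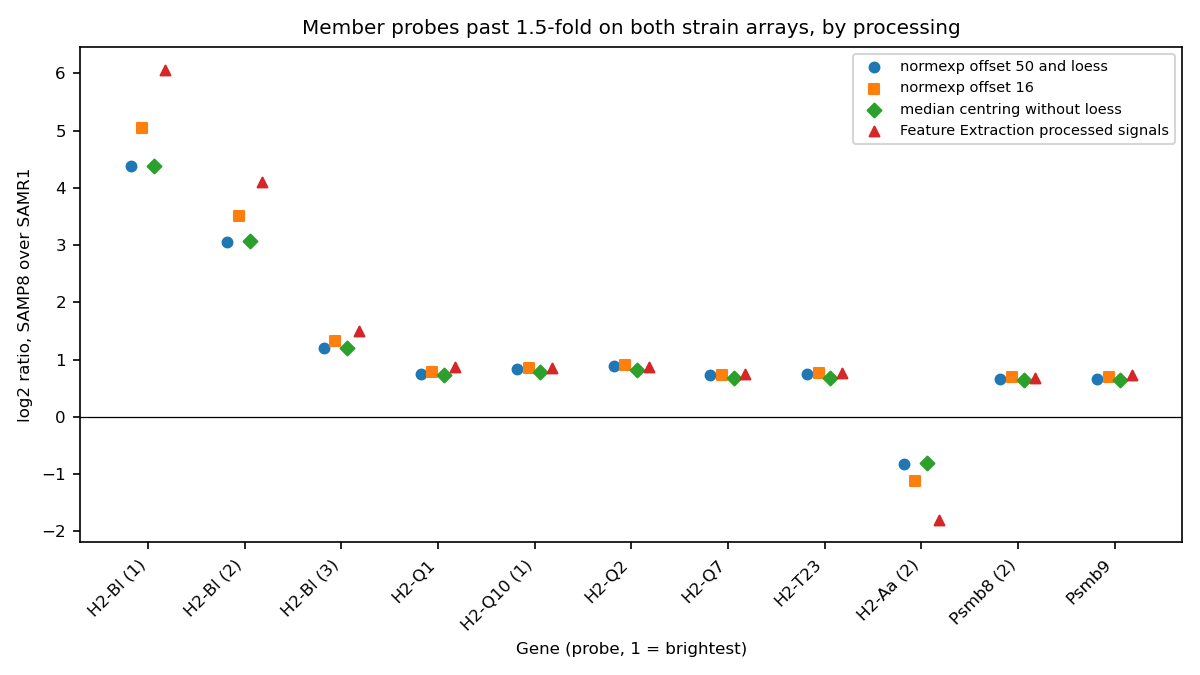
Mean log2 ratio, SAMP8 over SAMR1, of the 11 probes called in the strain pair (x axis) under 4 treatments of background and dye (symbols). All 11 keep their side of 0 under the 4 treatments; the first H2-Bl probe lies between 4.39 and 6.07 and the second H2-Aa probe between -1.80 and -0.80, while the probes of H2-Q1, H2-Q2, H2-Q7, H2-Q10, H2-T23, Psmb8 and Psmb9 stay between 0.65 and 0.90.

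The called genes all lay in 1 stretch of chromosome 17. The list itself largely set this, since the class I heavy chain genes, 6 of the 7 called, all lie there. Of the set, 20 genes fall in the H2 region between Tapbp and H2-M2, a span of 293 annotated genes, and 7 of these 20 were higher in SAMP8, with a median log2 ratio of 0.29. The other 7, B2m, Cd74, Ciita, Psmb10, Psme1, Psme2 and Erap1, lie elsewhere, and none was called, with a median of 0.08 and a range of -0.08 to 0.62. Of 104 other measured genes in the same span, 3 were higher and 3 lower, 5.77% in all, with a median of 0.018. Over all measured genes and unnamed transcripts 0.969% were called higher and 0.494% lower. The called genes were not in 1 block. Psmb9, Tap1, Psmb8 and Tap2 follow each other in gene order and had 0.67, 0.17, 0.61 and 0.31, and H2-DMb1 next to Psmb9 had -0.28.

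The other genes called in the span have varied roles. Ring1, a Polycomb subunit, was higher at 0.79 ± 0.12, although its other probe gave 0.09. Sapcd1 was higher at 0.78 ± 0.15, with 0.65 at its other probe, and Lst1, expressed in leukocytes, at 0.70 ± 0.05. The complement genes C4b and C2 were lower, C4b at -0.83 ± 0.21 and C2 at -0.79 ± 0.09 with -0.95 at its other probe. Ly6g6e was lower at -0.89 ± 0.08.

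**Figure D4:**
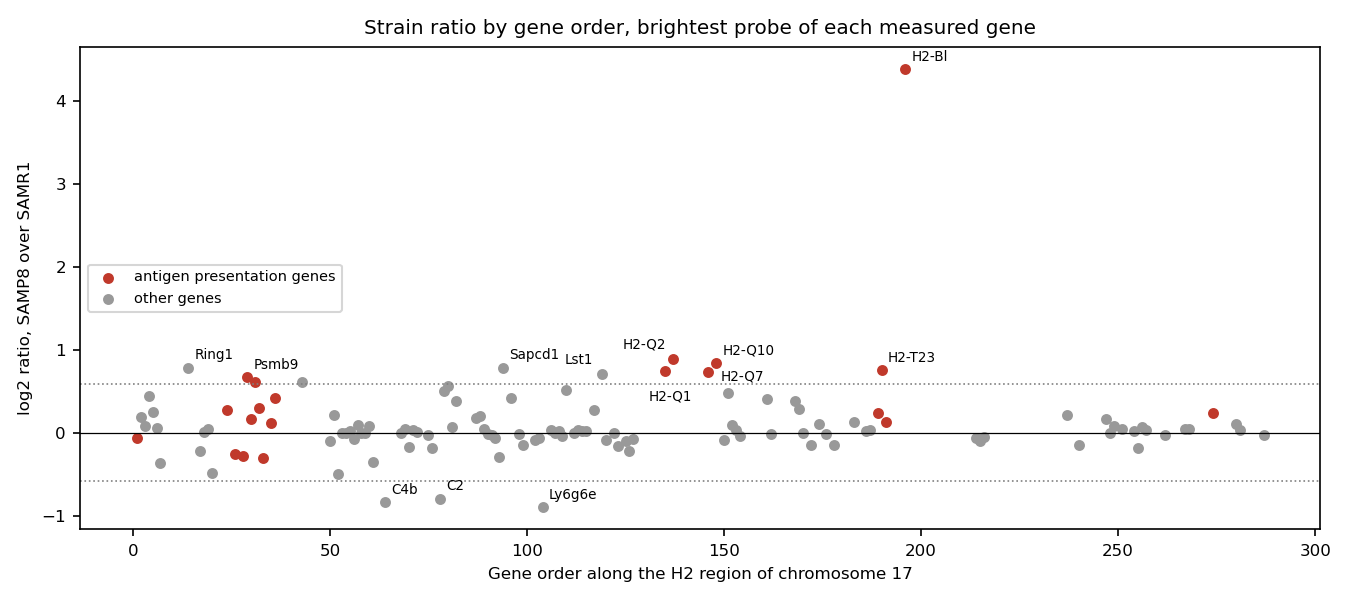
Mean log2 ratio, SAMP8 over SAMR1, of the brightest probe of each measured gene (y axis) by gene order in the H2 region of chromosome 17 (x axis, a rank and not a distance), red for the listed genes and grey for the others. Names mark the 13 genes past 1.5-fold (dotted lines) on both arrays; H2-Bl stands at 4.39 and the other 12 lie between -0.89 and 0.90.

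Regulators and partners of the pathway, taken as lists, held no called gene in the strain pair. The 10 transcriptional regulators measured had a median log2 ratio of 0.01. Irf1, an activator of class I genes, had 0.19 ± 0.06 and Irf2, its antagonist, -0.17 ± 0.04. The 5 genes of interferon gamma receptor signalling had a median of 0.02, with Socs1, a feedback inhibitor, at 0.22 ± 0.04, Ifngr1 at 0.10 ± 0.09 and Jak2 at -0.04 ± 0.09. Each of these was well under 1.5-fold.

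The partners were likewise under the threshold. The 4 class I chaperones had a median of 0.05, with Calr at 0.16 ± 0.28, Canx at 0.08 ± 0.04 and Tapbpl at -0.04 ± 0.22. The 6 class I-like molecules had 0.04, with Azgp1 at -0.10 ± 0.41, Hfe at -0.10 ± 0.20 and Mr1 at 0.09 ± 0.04. The 6 lysosomal genes of class II processing had 0.09, with the thiol reductase Ifi30 at 0.22 ± 0.04, the protease Ctss at 0.19 ± 0.08 and Ctsl at 0.12 ± 0.21. The 4 costimulation genes had 0.12, with Cd274 at 0.21 ± 0.23, Cd86 at 0.15 ± 0.07 and Cd80 at 0.09 ± 0.15.

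Some markers of meninges and blood were also called in the strain pair. The 5 meningeal fibroblast markers had a median log2 ratio of 0.70, 3 of them called higher in SAMP8 (Col3a1 at 0.96, Col1a1 at 0.86 and Col1a2 at 0.70), and summed intensities of 19403 to 19936 in SAMP8, against 13602 to 14390 in SAMR1. The 4 blood markers had a median of 0.78, with S100a9 at 1.31 and S100a8 at 1.11 called higher, and summed 46187 to 46833 in SAMP8, against 33983 to 34639 in SAMR1. All 6 endothelial markers were above 0 on both arrays with a median of 0.37 and none called, Pecam1 being at 0.44, and summed 17942 to 20388 in SAMP8, against 14290 to 15052 in SAMR1.

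Marker lists of immune cells had medians nearer to 0. The 11 microglial markers had a median of 0.12 with none called, 6 being above 0 on both arrays and 4 below 0 on both. The highest were C1qc at 0.29, Aif1 at 0.28 and Itgam at 0.25. Those below 0 were Tmem119 at -0.14, Csf1r at -0.11, P2ry12 at -0.11 and Trem2 at -0.06. The microglial list summed 34089 to 34471 in SAMP8, against 32753 to 33517 in SAMR1. Of border macrophage and dendritic cell markers 7 of 8 were measured, with a median of 0.12. Itgax was higher at 1.02 and Mrc1 stood at 0.56, while Batf3 at -0.17 was below 0 on both arrays. The list summed 2596 to 2697 in SAMP8, against 2332 to 2396 in SAMR1. The 7 T and NK cell markers measured had a median of 0.02, 4 being above 0 on both arrays and 3 below 0 on both. Klrd1 was the 1 called, with Lck at -0.20 and Cd3g at 0.15. The 8 with a probe summed 1848 to 2134 in SAMP8, against 1924 to 2240 in SAMR1. Of 5 B cell markers 3 were measured, with a median of 0.02, Cd79b at 0.42, and Ms4a1 and Pax5 not well above background. The 8 brain markers had a median of -0.10 with none called. Gfap at 0.55 and Aqp4 at 0.41 were above 0 on both arrays, and Gad1 at -0.15 and Slc17a7 at -0.10 below 0 on both. The other 4 had opposite signs on the arrays, among them Mbp, the lowest at -0.22. What part these cell types had in the class I ratios was not tested.

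The diet comparison called no gene of the set. Of 26 measured, none was higher or lower with the WME diet, where 0.0563% of 26659 genes and unnamed transcripts were called higher and 0.03% lower. Of the 44 measured probes none was called, where 0.0563% of 33737 were called higher and 0.0237% lower. Mean log2 ratios of the 45 probes ran from -0.19 to 0.06. The median was -0.09 over the 26 genes, against 0.0037 over all measured. Ratios were below 0 on both arrays for 11 of the 26 genes (42.3%), against 17.6% of all measured, and above 0 on both for none, against 20.5%.

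The lowest diet ratios were those of class I genes, and they were small. H2-T23 had intensities of 12.19 and 12.23 in SAMP8 WME brain, against 12.44 and 12.36 in SAMP8 LSO brain, a log2 ratio of -0.19 ± 0.09. H2-Q7 had 11.65 and 11.76 in WME, against 11.92 and 11.87 in LSO, a log2 ratio of -0.19 ± 0.11. H2-Q2 had 12.62 and 12.63 in WME, against 12.86 and 12.74 in LSO, a log2 ratio of -0.18 ± 0.09. In these genes the WME values lay below the LSO values on both arrays, by more than the SD between arrays and by far less than 1.5-fold. These differences depended on the dye normalisation: with median centring in place of loess H2-T23 had -0.0064, H2-Q7 -0.02 and H2-Q2 0.01, where the median of all genes was 0.07.

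The remaining class I genes were not called either. H2-Q1 had -0.36 and 0.00 on the arrays, and the brightest H2-Q10 probe -0.31 and -0.04. H2-Bl had 10.93 and 10.72 in WME, against 10.85 and 10.99 in LSO, and its 3 probes had ratios of opposite sign on the arrays. H2-M3 had 0.24 and -0.23, H2-T22 -0.06 and -0.13, and H2-T24 0.04 and -0.01. The 9 class I genes had a median of -0.18, with 5 below 0 on both arrays.

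Processing and class II genes stayed closer to 0. Psmb9 had 10.05 and 10.11 in WME, against 10.23 and 10.22 in LSO, a log2 ratio of -0.14 ± 0.05 that was -0.02 under median centring, and Psmb8 -0.12 ± 0.11. B2m had 0.07 and -0.21, Tap1 a mean of -0.11, Tap2 -0.13 ± 0.23, Tapbp -0.07, Erap1 0.06 ± 0.29, Psmb10 -0.01, Psme1 -0.01 and Psme2 -0.02. The 10 processing genes had a median of -0.07. Among class II genes H2-Aa had -0.15 ± 0.09, H2-Ab1 -0.08 ± 0.02, Cd74 -0.06, Ciita -0.02 ± 0.07, H2-DMa -0.03, H2-DMb1 -0.12 and H2-Oa -0.06, and the 7 measured had a median of -0.06. The second H2-Aa probe, lower in SAMP8 than in SAMR1, had 0.07 and 0.00 between the diets.

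Of the marker lists, blood markers held the only calls in the diet pair. S100a9 was lower with WME at -1.09 and S100a8 at -0.80, and the blood list summed 36733 to 39328 in WME, against 41384 to 45324 in LSO. The meningeal markers had a median of -0.21 and the endothelial ones -0.09, while the microglial ones had 0.04, the border macrophage and dendritic cell ones 0.03, the T and NK cell ones -0.0077, the B cell ones 0.0077 and the brain ones -0.05. None of the 7 pathway lists held a called gene, and their medians ran from -0.06 for costimulation to 0.05 for interferon gamma receptor signalling. The part of blood or vessels in the class I values was not tested.

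The contrasts are set side by side because they are taken to share the SAMP8 LSO RNA. If they do, an error in that RNA would enter them with opposite signs. H2-T23 had 0.75 for SAMP8 over SAMR1 and -0.19 for WME over LSO, H2-Q2 0.90 and -0.18, H2-Q7 0.73 and -0.19, Psmb9 0.67 and -0.14, and H2-Bl 4.39 and -0.10. Under median centring these diet values lay between -0.02 and 0.05.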

How the data were processed

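Total RNA of whole brain was hybridised to 4 two-colour Agilent mouse arrays, per the labels' protocols. Spot intensities in the deposited files came from Agilent Feature Extraction, version 11.0.1.1 per the submitters' processing notes and the headers. Median intensity and local background are raw, and processed intensities are background-subtracted and dye-normalised, per the file headers. The log10 ratio the authors deposited is red over green and was not used further. The deposited series table holds log2 ratios that match, within 5e-09, the log2 quotient of red and green processed signals on each array, not turned for the dye swap, with column medians of -0.018, 0.012, 0.0036 and 0.017. Flags for background, saturation and outliers were used as deposited.

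Median intensities were corrected with normexp (offset 50) and loess-normalised within each array (limma 3.58.1 in R 4.3.3), control spots having weight 0 and outlier spots being left out. Spots of a probe were averaged, ratios were turned for the dye swap, and both arrays were averaged. Levels are log2 intensities after quantile scaling of the mean of both channels between arrays. Levels of different probes were not compared, except to choose the brightest probe of a gene. The sums over a marker list add linear levels of different probes, so bright genes weigh most in them. A gene counted as measured when its brightest probe stood well above background on both arrays for at least 1 of the paired RNAs.

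Of 41174 probes, 23374 were named through accessions of the RefSeq gene table (GRCm38.p6, for names and order alone), 10 by symbol, and 17790 went unmatched and kept the name in the file. The array headers name another build. Promoters were taken from RefSeq on GRCm38.p6 for the 250 bases before each start.

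Every listed gene is named. Of each pathway or marker list, up to 3 genes with the largest absolute strain ratio and any called are named, and of other H2 region genes those called. Microglial and brain markers below 0 on both strain arrays are named as well. One gene of the pathway lists is not reported here. The members and lists were chosen with earlier results of these data known. No test was run, since each group was 1 RNA. Alternatives were Feature Extraction's processed signals, median centring without loess, an offset of 16, stricter and no filters on dim probes, the median over probes, every probe counted, each array alone, and a threshold of 2-fold. The calling steps were checked on simulated data with changes of 2-fold or more, planted in bright genes. Changes nearer to 1.5-fold, or in dim genes, were not simulated.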

Additional observations from a re-analysis of the deposited data

How the results depend on the processing

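All 11 probes called in the strain pair kept their direction and a mean past 1.5-fold under processed signals, median centring and an offset of 16. On either array alone they do so by the rule for a call, which needs both arrays. The number of genes higher in SAMP8 was 7 and stayed between 7 and 9 over the other settings, except that 1, H2-Bl, passed 2-fold. On either array alone the number could not fall below 7, since each call needs both arrays. With every probe counted 10 probes were higher. Psmb8 was added with an offset of 16, with processed signals (also H2-T24) and on array 4 alone, and B2m on array 3 alone. With the median over probes H2-Q10 dropped out and Psmb8 came in. No gene was lower, but 1 was under processed signals, the dim H2-Ob at -1.39, and 1 probe, of H2-Aa, with every probe counted. The strain median over the set, 0.24, was 0.34 with processed signals, 0.33 with an offset of 16, 0.14 with the median over probes and 0.16 with every probe counted, and 0.24 to 0.28 with either array alone. The diet median, -0.09, turned to 0.0041 under median centring, where the median of all genes was 0.07, so the set lay 0.06 below it. No gene of the set was called in the diet pair under the settings run.

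Over all genes, strain calls numbered 261 higher and 133 lower, against 466 and 290 with processed signals 101 and 38 at 2-fold, and 323 and 239 or 388 and 176 on single arrays. Diet calls numbered 15 higher and 8 lower, against 62 and 41 with processed signals, 7 and 2 at 2-fold, and 15 and 62 or 81 and 20 on single arrays. No paired analysis was possible because each group was 1 RNA and the numbers in the labels mark dye orientations of the same RNAs. The ratios of dim probes, such as H2-Bl in SAMR1, H2-T24, H2-Ob, the dimmest H2-Q10 probes and the second H2-Aa probe, are limited by signal over background.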
